A study of Mus musculus with 6 samples.

Results

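The lysosome genes described here are 30 genes that encode lysosomal proteases, glycosidases, a lipase, lipid transfer and membrane proteins, subunits of the lysosomal proton pump and 1 autophagy receptor. They were taken by symbol from the gene table shared by all libraries, which lists 27998 genes, and all 30 were found. The libraries come from cultured mouse Müller glia, glial cells that span the retina, transfected with RNAs that inhibit let-7 or supply miR-25 or miR-124. The question the study put to them is how these microRNAs change what Müller glia express and become.

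There were 6 single-cell libraries, each from 1 treatment, so nothing given here has a replicate check and every interval covers counting error only. All cultures came from papain-dissociated retina and grew in neurobasal medium with N2, EGF, L-glutamine and 10% fetal bovine serum. All were transfected with Lipofectamine 3000, with each RNA at 500 nM. The control received a control mimic and a control antagomiR. The other libraries received a let-7 antagomiR (which blocks the let-7 microRNAs), a miR-25 mimic, a miR-124 mimic, the let-7 antagomiR with the miR-25 mimic (the double combination), or those RNAs together with the miR-124 mimic (the triple combination). Values are given below in this library order. The age, sex and strain of the mice and the pooling of retinas are not given in the labels. Cultures made this way hold other retinal cells beside Müller glia, and the labels give no purification step.

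Lysosomes are acidic organelles that receive material by endocytosis, phagocytosis and autophagy and break it down with hydrolases that work at low pH. A vacuolar proton pump (V-ATPase) keeps them acid, a coat of heavily glycosylated membrane proteins lines them, and transporters return the products to the cytoplasm. Many of their genes carry an E-box element read by TFEB, TFE3 and MITF, the factors that couple lysosome number to nutrient state. In the retina, Müller glia and microglia take up debris of dying neurons.

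The matrices held 11804176 to 23124374 UMIs (unique RNA molecules counted) per library. That of the double combination broke off after 5094879 of its 8637523 entries, so 3014 of its 5141 barcodes were used. After filtering, 2706 to 5048 cells remained per library, and 12 to 33 cell barcodes were shared between libraries over the 15 pairs. Cells were clustered without the lysosome genes, so that these genes could not set the classes. Müller-like cells, the cells the labels name, were 1373, 1619, 3123, 1305, 1390 and 2318 in number, with median depths of 3922, 5595, 3666, 2635, 3893.5 and 3698 UMIs. All 23 genes of a Müller marker list were detected in them in every library, at 12591 to 25391 CPM in sum (CPM, UMIs of a gene per 1000000 UMIs), highest in the labelled-miR-124 and labelled-triple libraries.

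The labelled-miR-124 and labelled-triple libraries are called by their label throughout, because genes with let-7 or miR-25 sites did not all stand as it would have them. After adjustment for 3′ UTR length, base composition and level, the log2 ratios to control of the 1217 genes with a let-7 site exceeded those without one by 0.064 with the let-7 antagomiR and by 0.080 in the double combination. The same difference was 0.082 in the labelled-miR-124 library, whose label names no let-7 inhibitor, and 0.0026 in the labelled-triple library, whose label does. For the 1139 genes with a miR-25 site it was -0.099 with the miR-25 mimic and -0.11 in the double combination. It was 0.035 in the labelled-triple library, whose label names that mimic, and 0.026 in the labelled-miR-124 library, whose label does not. Without the adjustment, the medians with and without a let-7 site were 0.028 and 0.00068 with the let-7 antagomiR, -0.019 and -0.017 in the double combination, 0.16 and 0.025 in the labelled-miR-124 library and 0.094 and 0.044 in the labelled-triple library. The let-7 pattern of the double and labelled-triple libraries thus depends on the adjustment. For miR-25 the unadjusted medians kept the sign of the adjusted differences. They were -0.069 and 0.044 with the mimic, 0.11 and 0.043 in the labelled-triple library and 0.11 and 0.034 in the labelled-miR-124 library. All these are differences between single libraries, given without a spread. The mix of Müller-like clusters, described further on, also differed between the libraries, and its part in these values was not tested. What RNAs the labelled-miR-124 and labelled-triple libraries received was not tested further.

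The mature forms of the microRNAs named by the labels are shown with the seed, bases 2 to 8, in capitals (RefSeq). The let-7 family shares 1 seed, and let-7a and let-7b stand for it. The labels do not say which arm of miR-25 the mimic carries, and the 3p arm was assumed. For miR-124 no sites were searched.
let-7a-5p: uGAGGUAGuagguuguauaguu
let-7b-5p: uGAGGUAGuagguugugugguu
miR-25-3p: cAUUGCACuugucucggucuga

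Sites for these seeds were looked for in the longest annotated 3′ UTR of each gene (GENCODE vM21, GRCm38), as a match to bases 2 to 8 or as a match to bases 2 to 7 followed by an A. Of the 27 lysosome genes measured in Müller-like cells, 4 had a let-7 site (14.8%, against 17.4% of 7006 genes) and 2 had a miR-25 site (7.41%, against 16.3%). The let-7 sites lie in the cathepsins Ctsl and Ctsb, the cholesterol carrier Npc2 and the tripeptidyl peptidase Tpp1. The miR-25 sites lie in Lamp2, a membrane glycoprotein that lets proteins through for chaperone-mediated autophagy, and in Npc1. Gla, too low to be measured in Müller-like cells, has let-7 and miR-25 sites as well, which are not shown. The sites of the measured genes are shown so that their values below can be read beside the RNAs added. The site in Npc1 is named only. Matches are in capitals, on the transcribed strand.
Npc2, let-7 (chr12:84755613-84755620, minus strand): gcctcctgcttCTACCTCAagtgctgagat
Ctsl, let-7 (chr13:64363373-64363379, minus strand): gctaataagctTACCTCAaatatttaatt
Ctsl, let-7 (chr13:64359513-64359519, minus strand): tgaactttctgTACCTCAatgtttataag
Tpp1, let-7 (chr7:105745583-105745589, minus strand): acagtgagtgaTACCTCAaatgtgagata
Ctsb, let-7 (chr14:63142917-63142923, plus strand): tatgctttgtgTACCTCAaccaagtatga
Ctsb, let-7 (chr14:63143752-63143758, plus strand): caactccctccCTACCTCgcatagccagt
Lamp2, miR-25 (chrX:38421650-38421656, minus strand): aagttctcgcaTGCAATActattgaaggt

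Counts were summed over the Müller-like cells of each library and scaled to CPM. A UMI count is taken at the 3′ end of a transcript and is not scaled by length, so levels are compared between libraries and cell classes, not between genes. Of the 30 genes, 27 reached 20 CPM in at least 1 library. Ctsk, a bone and fibroblast cathepsin, stood between 0.319 and 1.17 CPM, Cd68, a macrophage glycoprotein, between 2.45 and 4.94, and Gla, an alpha-galactosidase, between 5.53 and 10.1, and these 3 enter no count of genes. Differences are log2 ratios of CPM + 5, which understate the change of low genes. Their 95% intervals are those of the ratio of counts without the added 5. A list of 15 microglia or macrophage genes summed to 13.9 to 23.8 CPM, with Mrc1 at 0 UMIs in 5 libraries, and a list of 10 pigment cell genes to 12.02 to 15.9 CPM. Markers of other cells were higher and differed between the libraries. A list of 12 pericyte or smooth muscle genes summed to 4232, 4714, 3578, 2023, 6154 and 1171 CPM, highest in the double combination and lowest in the labelled-triple library, with the pericyte genes Kcnj8 and Abcc9 at 0 UMIs in 4 libraries. A list of 9 astrocyte genes summed to 365, 396, 373, 913, 277 and 1577 CPM, the other way round. Its Gfap is also on the Müller list. The Rlbp1-led cluster of Müller-like cells, described further on, was itself high in S100b, Gfap, Cd44, Slc1a2 and Aldh1l1 of the astrocyte list. The astrocyte sum thus need not come from other cells. The part of either list in the results below was not tested.

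Of the 27 genes, 16 differed by at least 1.5 times in at least 1 of the 6 comparisons made, as did 38.2% of all genes tested: each treated library against control, and the labelled-triple library against the double combination. The 5 comparisons against control share that library and are not separate evidence.

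Gpnmb, a membrane glycoprotein of late endosomes and melanosomes that phagocytic cells make in quantity, had the widest range (ENSMUSG00000029816, chr6:49036546-49070929 in GRCm38). It stood at 202, 64.3, 155, 51.8, 276 and 47.5 CPM in library order, 5.81 times apart. The let-7 antagomiR library and the labelled-miR-124 and labelled-triple libraries were thus low and the other 3 high, with intervals that did not overlap between these sets (43.2 to 69.6 CPM against 148 CPM or more). The log2 ratio to control was -1.58 with the let-7 antagomiR (-1.80 to -1.51), the lowest of all 7121 genes tested in that comparison. In the double combination, which also received that antagomiR, it was 0.44 (0.33 to 0.56). The labelled-triple library stood 2.42 below the double combination on the log2 scale (-2.69 to -2.38).

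Ctsd encodes cathepsin D, the main aspartic protease of lysosomes (ENSMUSG00000007891, chr7:142375911-142388038). Its levels were 5337, 4592, 4079, 1802, 4491 and 1516 CPM. The labelled-miR-124 and labelled-triple libraries were the low ones, and no other library came below 4043 CPM at the lower end of its interval. The log2 ratios to control were -1.56 (-1.60 to -1.53) and -1.81 (-1.84 to -1.79), and that of triple to double was -1.56 (-1.60 to -1.54). Ctsd made up 44.7, 44.4, 39.9, 26.7, 38.1 and 23.2% of all UMIs of the 30 genes in library order.

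**Figure D1:**
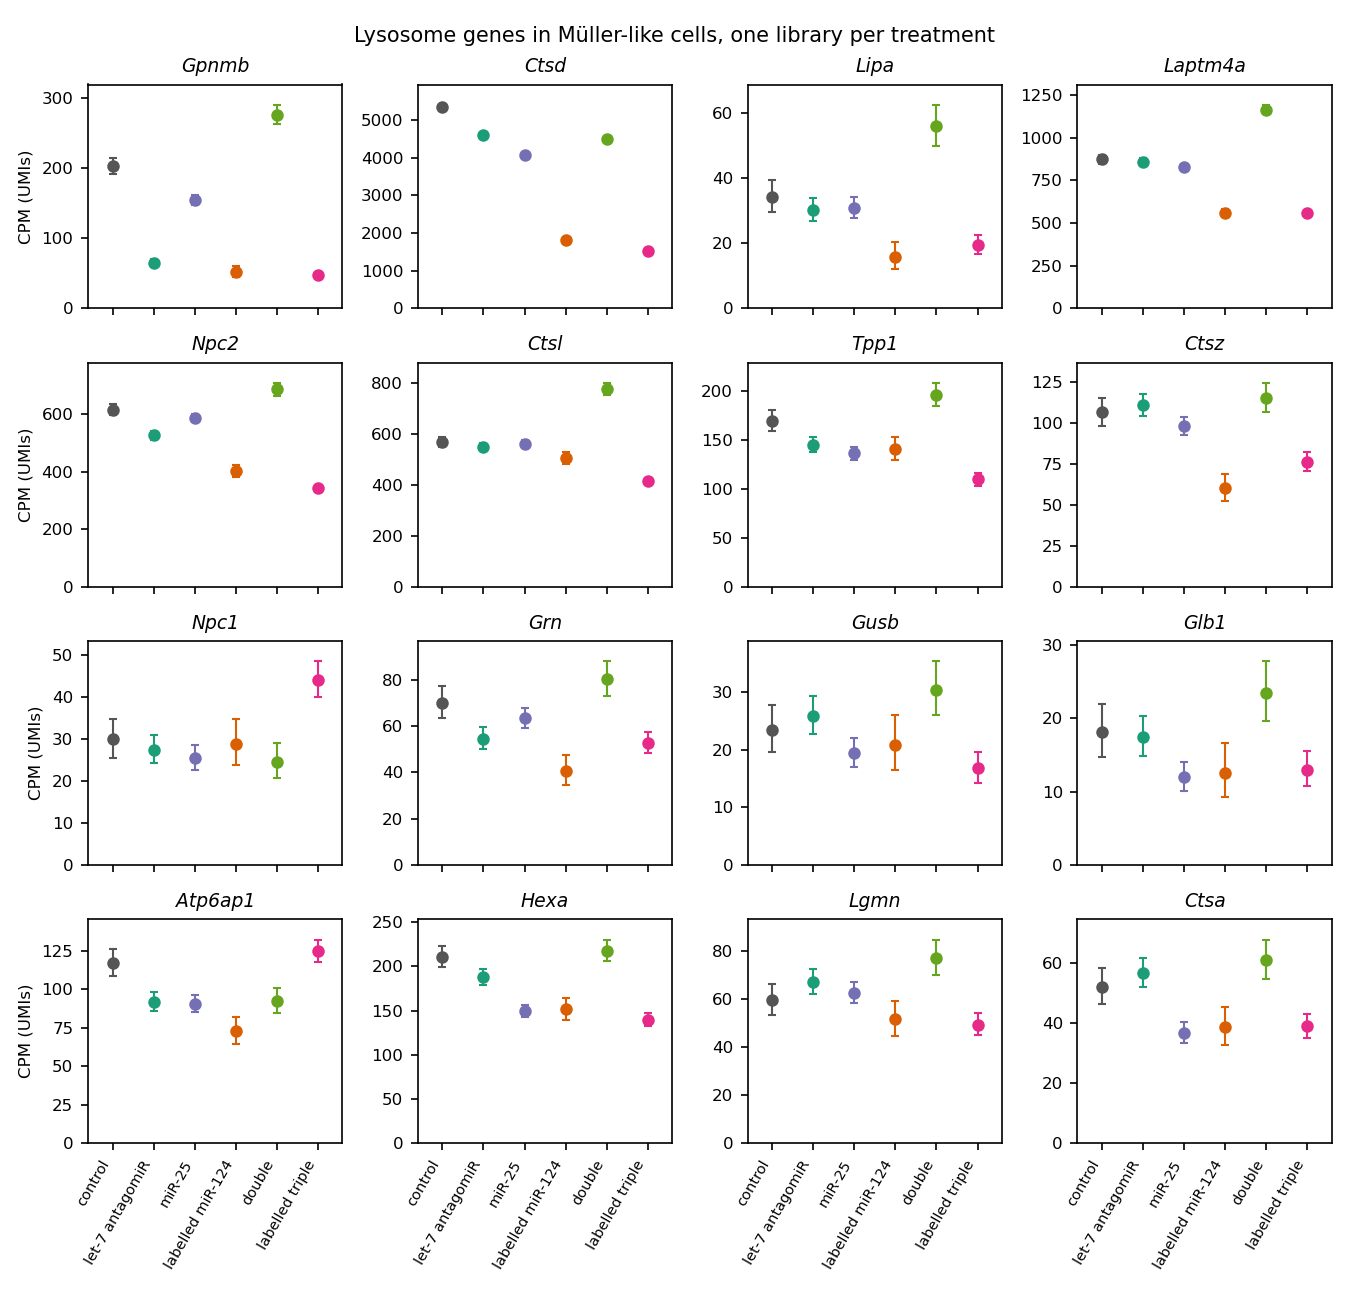
CPM of the 16 lysosome genes that differed by at least 1.5 times in at least 1 comparison, in Müller-like cells, with 1 point per library and 95% Poisson intervals that cover counting error only; each axis starts at 0. Ctsd, Gpnmb, Npc2 and Laptm4a stood lowest in the labelled-miR-124 and labelled-triple libraries, and Npc1 and Atp6ap1 stood highest in the labelled-triple library.

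The cysteine proteases spread less. Ctsl (cathepsin L) stood at 568, 550, 563, 505, 778 and 416 CPM, highest in the double combination and lowest in the labelled-triple library, a log2 ratio of -0.90 between them (-0.97 to -0.84). Ctsz (cathepsin Z) stood at 106, 111, 98.0, 60.1, 115 and 76.1 CPM. Here the labelled-miR-124 library was lowest, at a log2 ratio to control of -0.78 (-1.05 to -0.60). Lgmn, the asparaginyl protease legumain that processes other cathepsins, stood at 59.6, 67.2, 62.7, 51.5, 77.2 and 49.4 CPM, and its low and middle libraries overlapped in their intervals. Ctsb (cathepsin B) ranged only from 214 CPM, labelled miR-124, to 316 CPM, control.

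Of the serine peptidases, Tpp1, whose loss causes a neuronal storage disease, stood at 170, 145, 136, 141, 196 and 110 CPM. The double combination was highest and the labelled-triple library lowest, at a log2 ratio of -0.81 between them (-0.96 to -0.72). Ctsa, which also protects a lysosomal galactosidase and sialidase, stood at 52.1, 56.9, 36.9, 38.7, 61.2 and 39.0 CPM. Its libraries formed a lower set, the miR-25 mimic library and both of those called by their label, and a higher one of the other 3, with no overlap of their intervals.

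Lipa, the acid lipase that frees cholesterol and fatty acids from lipoproteins (chr19:34492318-34527474), ranged as widely as Ctsd. It stood at 34.1, 30.1, 30.8, 15.8, 55.9 and 19.5 CPM. The double combination lay above all other libraries and those labelled miR-124 and triple combination below them, with no overlap of the intervals between these 3 sets. Its log2 ratio to control in the double combination was 0.64 (0.45 to 0.98), the single value past 1.5 times higher among the 27 genes in any comparison with control. Between triple and double it was -1.31 (-1.79 to -1.25). Within the Npvf-led and Rlbp1-led clusters of these cells, described further on, its log2 ratio of the labelled-triple library to control was 0.11 (-0.48 to 0.70) and 0.65 (-0.93 to 4.02). Both intervals hold 0, and in the Rlbp1-led cluster Lipa was under 20 CPM in every library with 50 cells or more and had 2 UMIs in the control.

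Among the glycosidases, Hexa, the alpha subunit of beta-hexosaminidase, stood at 211, 188, 150, 151, 218 and 140 CPM. Gusb, beta-glucuronidase, stood at 23.5, 26.0, 19.5, 20.8, 30.5 and 16.8 CPM, and Glb1, beta-galactosidase, at 18.1, 17.4, 11.97, 12.6, 23.4 and 13.0 CPM. All were highest in the double combination, and their log2 ratios of triple to double were -0.62, -0.70 and -0.66. Glb1 reached 20 CPM in the double combination alone, so its standing highest there follows in part from the filter. Neu1, a sialidase, ranged from 22.9 to 27.5 CPM and Man2b1, an alpha-mannosidase, from 14.6 to 22.2 CPM, and neither passed 1.5 times in any comparison.

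Npc1 and Npc2 hand cholesterol out of the lysosome, Npc2 as the soluble carrier and Npc1 as the membrane transporter, and they went opposite ways. Npc2 (chr12:84754562-84773152) stood at 617, 527, 587, 401, 687 and 342 CPM, and the labelled-miR-124 and labelled-triple libraries lay below the rest. Npc1 stood at 29.9, 27.4, 25.4, 28.8, 24.5 and 44.0 CPM, and the labelled-triple library alone stood apart. The log2 ratios of triple to double were -0.995 for Npc2 (-1.07 to -0.94) and 0.73 for Npc1 (0.56 to 1.13). Npc1, which has a miR-25 site, was the single lysosome gene at least 1.5 times higher in that comparison.

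The precursors Psap and Grn yield the saposins, which present lipids to hydrolases, and the granulins. Psap stood at 492, 329, 432, 385, 396 and 517 CPM, lowest with the let-7 antagomiR at a log2 ratio to control of -0.58 (-0.66 to -0.51), just inside 1.5 times. Grn stood at 70.04, 54.6, 63.3, 40.6, 80.2 and 52.7 CPM, lowest in the labelled-miR-124 library at -0.72 (-1.07 to -0.51). Psap was thus highest, and Grn below the control, in the labelled-triple library.

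Of the other membrane proteins, Laptm4a, a small endosomal membrane protein, had the widest range (chr12:8921664-8938742). It stood at 872, 860, 827, 557, 1163 and 559 CPM. The labelled-miR-124 and labelled-triple libraries were equal within their intervals and below all others, and the double combination stood above all others. Its log2 ratio of triple to double was -1.05 (-1.11 to -1.01). Cd63, a tetraspanin of late endosomes, ranged from 1084 CPM, labelled miR-124, to 1638 CPM, double combination. Lamp1, the most abundant lysosomal glycoprotein of many cells, ranged from 153 to 220 CPM and Lamp2 from 321 to 387 CPM, both highest in the control. Scarb2, which carries glucocerebrosidase to lysosomes, ranged from 161 CPM with the miR-25 mimic to 266 CPM with the let-7 antagomiR.

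The pump genes did not share this order. Atp6ap1, an accessory subunit of the V-ATPase, stood at 117, 91.8, 90.6, 72.6, 92.5 and 125 CPM, lowest in the labelled-miR-124 library and highest in that labelled triple combination. Atp6v0d1, of the membrane sector, ranged from 53.3 to 77.2 CPM, highest in the double combination. Atp6v1h, of the cytoplasmic sector, ranged from 30.9 to 47.0 CPM, and it was the 1 gene of the 27 for which both the labelled-miR-124 library and that labelled triple combination lay above the other 4, as did 29.2% of all genes tested. Sqstm1, the autophagy receptor p62, ranged from 196 to 262 CPM.

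Against control, the let-7 antagomiR library had 0 of the 27 genes at least 1.5 times higher and 1 lower, Gpnmb, where 1.04% and 0.702% of all 7121 genes tested were. The median log2 ratio of the 27 genes was -0.17, with 20 below 0, and that of all genes 0.0062. With the miR-25 mimic, 0 were higher and 0 lower (1.39% and 0.955% of all genes), and the median was -0.20 beside 0.029, with 22 of 27 below 0. Hexa, at -0.48 (-0.60 to -0.39), was the lowest there. The double combination had 1 higher, Lipa, and 0 lower (3.06% and 5.01%), with a median of 0.16 beside -0.019 and 18 of 27 above 0.

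The labelled-miR-124 library had 0 genes higher and 8 of 27 lower (7.78% and 6.98% of all genes), and its median was -0.40 beside 0.047. The 8 were Gpnmb, Ctsd, Lipa, Ctsz, Grn, Atp6ap1, Laptm4a and Npc2. The labelled-triple library had 0 higher and 6 lower against control (10.8% and 8.66%), with a median of -0.38 beside 0.055. These 6 were Ctsd, Gpnmb, Npc2, Lipa, Laptm4a and Tpp1. Against the double combination it had 1 higher, Npc1, and 12 lower (18.2% and 12.9%), with a median of -0.57 beside 0.071, and 20 of 27 lay below 0. Over all kept cells of every class that median was 0.024. Glb1, among the 12 lower, passed the filter through the double combination alone.

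**Figure D2:**
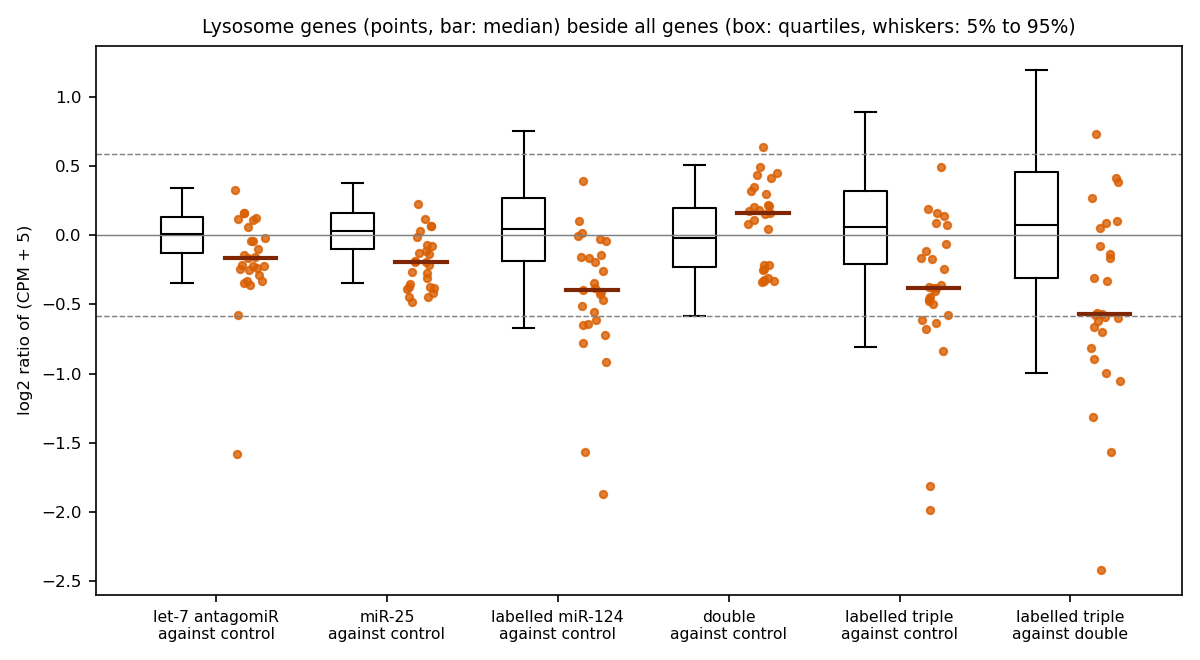
Log2 ratios of CPM + 5 in Müller-like cells for the 27 measured lysosome genes (points, with a bar at their median) beside all 7121 genes tested (box, quartiles; whiskers, the central 90%) in each comparison; dashed lines mark 1.5 times. The median of the lysosome genes lay between -0.57, triple against double, and 0.16, double against control, and Gpnmb and Ctsd are the lowest points of the 3 comparisons that involve the labelled-miR-124 library or triple combination.

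Taking all libraries, 17 of the 27 genes were highest in the double combination (22.8% of all genes tested were), 9 were lowest in the labelled-triple library (24.6%) and 8 lowest in that labelled miR-124 (14.3%). Both of the latter libraries lay below the other 4 for 11 genes (20.9% of all genes): Gpnmb, Ctsd, Ctsl, Ctsz, Lamp1, Cd63, Grn, Npc2, Lgmn, Lipa and Laptm4a. These are proteases, the lipase, a cholesterol carrier and membrane proteins, and no V-ATPase gene is among them. Glb1, among the 17 highest in the double combination, passed the filter through that library alone.

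The genes with sites for the added RNAs showed no common order. Of the 4 with a let-7 site, the median log2 ratio to control was -0.22 with the let-7 antagomiR, against -0.16 for the other lysosome genes, and 0.18 against 0.16 in the double combination. Of the 2 with a miR-25 site, it was -0.23 with the miR-25 mimic against -0.19, and -0.23 against 0.17 in the double combination. Lamp2 stood at -0.26 with the miR-25 mimic and -0.22 in the double combination, with -0.03 and -0.17 in the labelled-miR-124 and labelled-triple libraries. Npc1 stood at -0.20 and -0.24 in the first pair, with intervals that reach 0.05 in each. With 4 and 2 genes these medians describe those genes only.

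The mix of Müller-like cells differed between the libraries, and the level of the lysosome genes differed between its clusters. Müller-like cells fell into a cluster led by Lcn2, an acute-phase gene of reactive glia, a cluster led by Npvf, a neuropeptide precursor, and a cluster led by Rlbp1, a retinoid carrier of mature Müller glia. Of the 23 Müller markers, 12, 6 and 19 stood at least 2 times over the median cluster in these clusters. The Rlbp1-led cluster held 5.46, 11.2, 8.71, 59.1, 2.23 and 80.9% of Müller-like cells in library order. The Npvf-led cluster held 40.1, 39.5, 30.3, 11.3, 58.1 and 5.18%. The most Rlbp1-led cells were thus in the labelled-miR-124 and labelled-triple libraries, and the most Npvf-led cells in the double combination.

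The summed UMIs of all 30 genes were 1.19, 1.03, 1.02, 0.674, 1.18 and 0.654% of all UMIs of Müller-like cells. Within the Npvf-led cluster they were 1.23, 1.09, 1.08, 1.11, 1.22 and 1.19%, so that the labelled-miR-124 and labelled-triple libraries lay among the others. Within the Lcn2-led cluster they were 1.19, 1.04, 1.03, 0.795, 1.12 and 0.928%, and those libraries were the lowest of the 6. Within the Rlbp1-led cluster they were 0.861, 0.763, 0.650, 0.509, 0.716 and 0.547%, lower than in the other clusters in every library, and the 2 libraries were again lowest. The control has 75 cells there and the double combination 31. Without Ctsd the sums in the Lcn2-led cluster were 0.632, 0.550, 0.605, 0.528, 0.654 and 0.592%. The labelled-triple library then lay above the let-7 antagomiR library. In all Müller-like cells and in the Rlbp1-led cluster the labelled-miR-124 and labelled-triple libraries stayed the lowest without Ctsd.

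Single genes split the same way. Ctsd stood at 5358, 4803, 4260, 4510, 4490 and 5110 CPM in the Npvf-led cluster, and its log2 ratio of triple to double there was 0.19. In the Lcn2-led cluster it stood at 5561, 4860, 4263, 2664, 4623 and 3367 CPM, and in the Rlbp1-led cluster at 2710, 2429, 1684, 714, 1801 and 797 CPM. The low Ctsd of the labelled-miR-124 and labelled-triple libraries was thus seen in the Lcn2-led and Rlbp1-led clusters and not in the Npvf-led one.

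Gpnmb kept its order in more of the clusters. In the Npvf-led cluster it stood at 256, 62.7, 219, 124.2, 313 and 168 CPM, in the Lcn2-led cluster at 155, 67.5, 126, 65.3, 213 and 60.2 CPM, and in the Rlbp1-led cluster at 164, 56.6, 92.1, 27.4, 86.8 and 33.1 CPM. With the let-7 antagomiR its log2 ratio to control was -1.94, -1.14 and -1.46 in these clusters, lower in each. Among the genes tested in the Npvf-led and Lcn2-led clusters it was the lowest in that comparison.

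**Figure D3:**
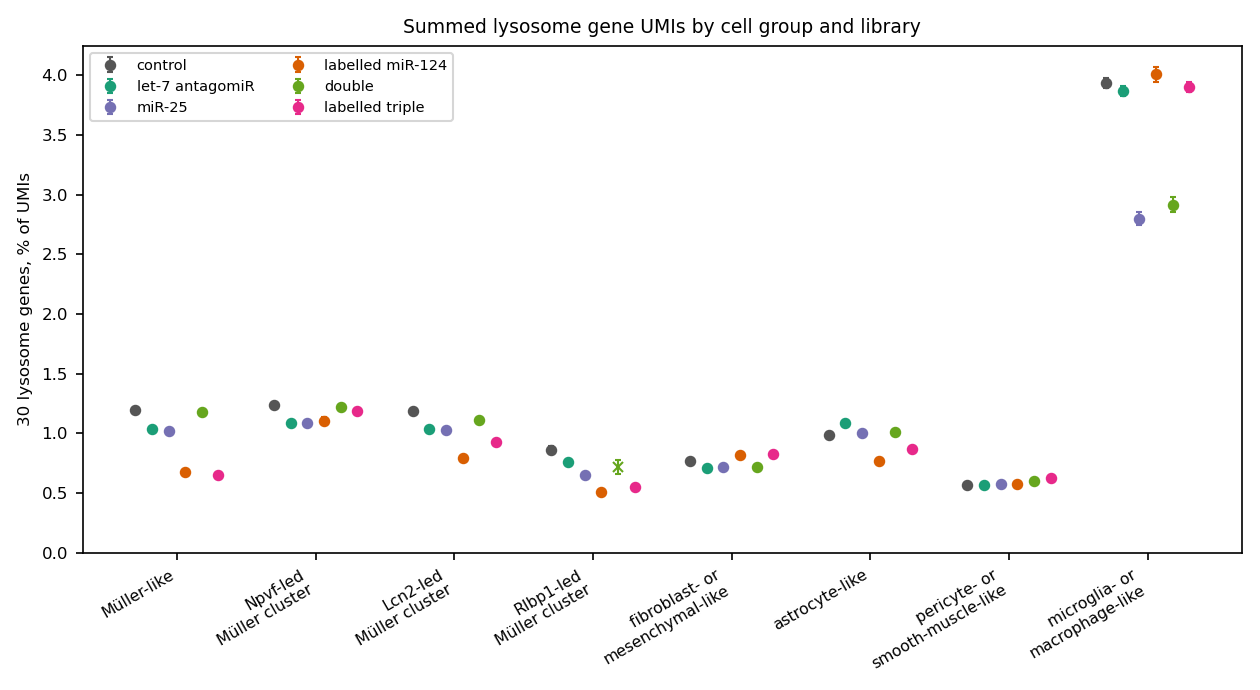
Summed UMIs of the 30 lysosome genes as a percentage of all UMIs, for Müller-like cells, their 3 clusters and 4 other classes, with 1 point per library and 95% counting intervals; a cross marks a library with fewer than 50 cells. Within the Npvf-led cluster the libraries lie between 1.08 and 1.23%, and within microglia- or macrophage-like cells the miR-25 mimic and double combination libraries lie at 2.80 and 2.91% below the others.

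In the Npvf-led cluster, 2 of the 27 genes were at least 1.5 times lower in the labelled-miR-124 library than in the control and 1 higher (6.3% and 4.51% of the genes tested), 2 lower and 1 higher in the labelled-triple library (4.88% and 4.09%), and 2 lower and 0 higher between triple and double (8.37% and 8.87%). The higher one was Sqstm1. The medians were -0.10, -0.0085 and -0.10, beside -0.0067, -0.0040 and 0.0035 for all genes. In the Lcn2-led cluster 5 were lower and 0 higher (3.88% and 3.12%), 4 and 0 (3.3% and 2.92%), and 3 and 1 (7.54% and 9.01%), with medians of -0.35, -0.069 and -0.20 beside 0.021, 0.0047 and 0.020. In the Rlbp1-led cluster, 24 genes passed the filter. Against the 75 cells of the control, 8 were lower and 1 higher in the labelled-miR-124 library (13.5% and 19.8%), and 5 lower and 1 higher in the labelled-triple library (11.8% and 19.8%). The higher one was Neu1, which had 2 UMIs in the control. Its intervals in the 2 libraries were -0.27 to 4.73 and -0.068 to 4.86, and both hold 0. Gpnmb was among the lower genes in all of these, and Ctsd, Hexa, Npc2 and Laptm4a in both comparisons of the Rlbp1-led cluster.

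The promoters of the lysosome genes were searched for the element read by TFEB and its relatives. RefSeq's table (GRCm38.p6) gave 250 bases before and 50 after the start of 27 of the 30 genes, not the same 27 as those measured. A gene with more than 1 listed start was counted if any of its windows matched. For Ctsa and Lgmn, CACGTG lay at only 1 of their listed starts. The E-box CACGTG, its own reverse complement, was present for 8 of the 27 (29.6%), against 8.09% of 27025 genes and 12.4% of the 5517 genes tested in Müller-like cells that have an entry. Its longer form TCACGTGA, counted within it, was present for 4 (14.8%, against 1.12% and 2.48%). TCATGTG, read by MITF and searched on both strands, was present for 5 (18.5%, against 4.31% and 2.34%). The 10-base consensus known as the CLEAR element was present for 0. In the further lists below, CACGTG was present for 33.3% of 15 sorting genes, 30% of 10 V-ATPase subunits and 27.3% of 22 soluble hydrolases. It was present for 26.3% of 19 membrane proteins and of 19 genes of TFEB-family factors and nutrient signalling. Shares were lower for autophagy (20% of 15), fusion (15.4% of 13) and cysteine protease inhibitor genes (0% of 2). Of the 8 with CACGTG, Ctsd, Ctsl, Lamp1 and Lgmn are among the 11 genes lowest in the labelled-miR-124 and labelled-triple libraries. Ctsa, Glb1 and Atp6v0d1 are not. Gla, which also has CACGTG, missed the filter in Müller-like cells and could not be among the 11. The rest of the 11, Gpnmb, Ctsz, Cd63, Grn, Npc2, Lipa and Laptm4a, had no CACGTG.

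Ctsd had matches beginning 245 and 98 bases before the start and Lamp1 4 matches between 61 and 15 bases before it. Gpnmb, whose levels differed most, and Laptm4a had none in this window. The window of Laptm4a (chr12:8921057-8921356) ends before the GENCODE start of that gene, 8921664, and does not cover it. A match describes the letters and not a site in use. The promoters of Ctsd and Lamp1 are shown with CACGTG in capitals, and that of Gpnmb beside them.
Ctsd (chr7:142387778-142388077, minus strand): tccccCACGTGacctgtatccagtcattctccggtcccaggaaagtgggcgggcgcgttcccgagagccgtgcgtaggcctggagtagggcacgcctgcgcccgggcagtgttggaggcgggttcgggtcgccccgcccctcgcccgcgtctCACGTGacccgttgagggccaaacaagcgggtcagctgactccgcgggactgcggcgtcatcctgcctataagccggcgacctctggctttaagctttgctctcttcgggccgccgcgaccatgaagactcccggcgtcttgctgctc
Lamp1 (chr8:13158911-13159210, plus strand): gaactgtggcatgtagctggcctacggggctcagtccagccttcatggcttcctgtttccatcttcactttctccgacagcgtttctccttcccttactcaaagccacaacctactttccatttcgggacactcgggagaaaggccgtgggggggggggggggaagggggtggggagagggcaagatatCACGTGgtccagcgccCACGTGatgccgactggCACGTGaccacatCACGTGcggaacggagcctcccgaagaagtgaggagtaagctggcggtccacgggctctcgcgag
Gpnmb (chr6:49036268-49036567, plus strand): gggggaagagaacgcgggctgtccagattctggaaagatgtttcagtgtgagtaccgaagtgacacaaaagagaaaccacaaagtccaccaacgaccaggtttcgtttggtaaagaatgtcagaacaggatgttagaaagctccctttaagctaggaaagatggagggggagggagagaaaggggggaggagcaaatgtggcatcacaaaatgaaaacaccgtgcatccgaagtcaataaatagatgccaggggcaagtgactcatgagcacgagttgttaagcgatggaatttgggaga

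Other genes of the pathway were read from lists in the same Müller-like cells, between the labelled-triple library and the double combination, where 18.2% of all genes tested passed 1.5 times upward and 12.9% downward, at a median of 0.071. Of 23 measured soluble hydrolases and cofactors, 1 was higher (4.35%) and 5 lower (21.7%), and the median was -0.15. Ctsc, a cathepsin that activates serine proteases, stood at 174, 185, 134, 107, 213 and 66.2 CPM, and Aga, which cleaves sugar from asparagine, at 123, 117, 102, 66.5, 150 and 51.5 CPM, both lowest in the labelled-triple library. Ctsh, an aminopeptidase cathepsin, stood at 72.9, 68.2, 86.9, 181, 73.2 and 284 CPM, a log2 ratio of 1.88. Ctso, another cathepsin, stood at 54.8, 63.1, 61.9, 87.6, 51.8 and 79.9 CPM, just inside 1.5 times. Both of these were highest in the labelled-miR-124 and labelled-triple libraries.

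All 3 measured cysteine protease inhibitors were lower. Cst3 (cystatin C), a secreted inhibitor of cathepsins, stood at 5379, 6479, 8039, 2797, 11479 and 2315 CPM, a log2 ratio of -2.31 between triple and double. Cstb stood at 362, 303, 385, 257, 381 and 237 CPM, and Cst6 at 20.6, 15.1, 18.8, 11.2, 19.9 and 10.1 CPM. All of them were lowest in the labelled-miR-124 and labelled-triple libraries.

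The lists for pump, sorting and membrane genes were mixed. Of 12 V-ATPase subunits, 2 were lower (16.7%), Atp6v0e at -1.25 and Atp6v0b at -0.63, and 1 higher (8.33%), Atp6v0a1 at 0.68, with Atp6v0a2 next at 0.41 and a median of -0.10. Of 16 sorting genes, 4 were lower (25.0%) and 0 higher, with a median of -0.022. Gnptg, part of the enzyme that tags hydrolases with mannose 6-phosphate, stood at -0.98 and M6pr, a receptor for that tag, at -0.69, while Sort1 and Ap1b1 stood at 0.42 each. Of 11 further membrane proteins, 1 was lower, Cd164 at -1.05, and 1 higher, Atp13a2 at 0.93, with Tmem175 at -0.24, Abca2 at 0.53 and a median of 0.18. Of 11 fusion genes 0 passed in either direction, from Vti1b at -0.43 and Vamp7 at -0.26 to Vps41 at 0.33 and Vps11 at 0.40.

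Of 18 measured autophagy genes, 5 were higher (27.8%) and 0 lower, with a median of 0.19. Wipi1, which binds lipids of the forming autophagosome, stood at 110, 108, 109, 212, 103 and 242 CPM, and Ulk1, the kinase that starts the process, at 16.4, 16.4, 15.7, 27.0, 11.3 and 30.7 CPM. Gabarap, a protein of the autophagosome membrane, and Atg5, which helps attach it, were the lowest of the list, at log2 ratios of -0.38 and -0.35. Of 16 genes of TFEB-family factors and nutrient signalling, 3 were higher (18.8%) and 2 lower (12.5%), near the shares of all genes, with a median of 0.28. Tsc1 and Fnip1 stood at 0.88 and 0.86, and Rheb and Rragd at -0.67 and -0.63. The lists were not tested against each other.

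Across cell classes the lysosome genes set microglia- or macrophage-like cells apart, which were 123, 98, 70, 97, 69 and 100 cells. These cells were named from 15 markers, all detected in every library. The summed UMIs of the 30 genes were 2.80 to 4.01% of their UMIs, against 0.711 to 0.824% in fibroblast- or mesenchymal-like cells, 0.773 to 1.09% in astrocyte-like cells and 0.564 to 0.624% in pericyte- or smooth-muscle-like cells. These classes were not clustered on the lysosome genes, but other genes of the same cells defined them.

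The genes were not all highest in the same class. Cd68 had a median over libraries of 1336 CPM in microglia-like cells and at most 7.39 CPM in any other class, and Ctsb had 5951 CPM against 260 CPM in Müller-like cells. Ctsk had 61.3 CPM in fibroblast-like and 50.7 CPM in pericyte-like cells, against 0.707 CPM in Müller-like cells. Gpnmb had 2069 CPM in microglia-like, 325 CPM in pigment-cell-like (1 library with at least 50 cells) and 109 CPM in Müller-like cells, and 6.79 to 9.71 CPM in fibroblast-, pericyte- and astrocyte-like cells. Ctsd was of like level in Müller-like and astrocyte-like cells, with medians of 4285 and 4582 CPM, and stood at 932 CPM in fibroblast-like cells. Scarb2 and Lamp2 were highest in Müller-like cells, at 203 and 338 CPM, and Laptm4a was lowest in microglia-like cells, at 292 CPM.

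**Figure D4:**
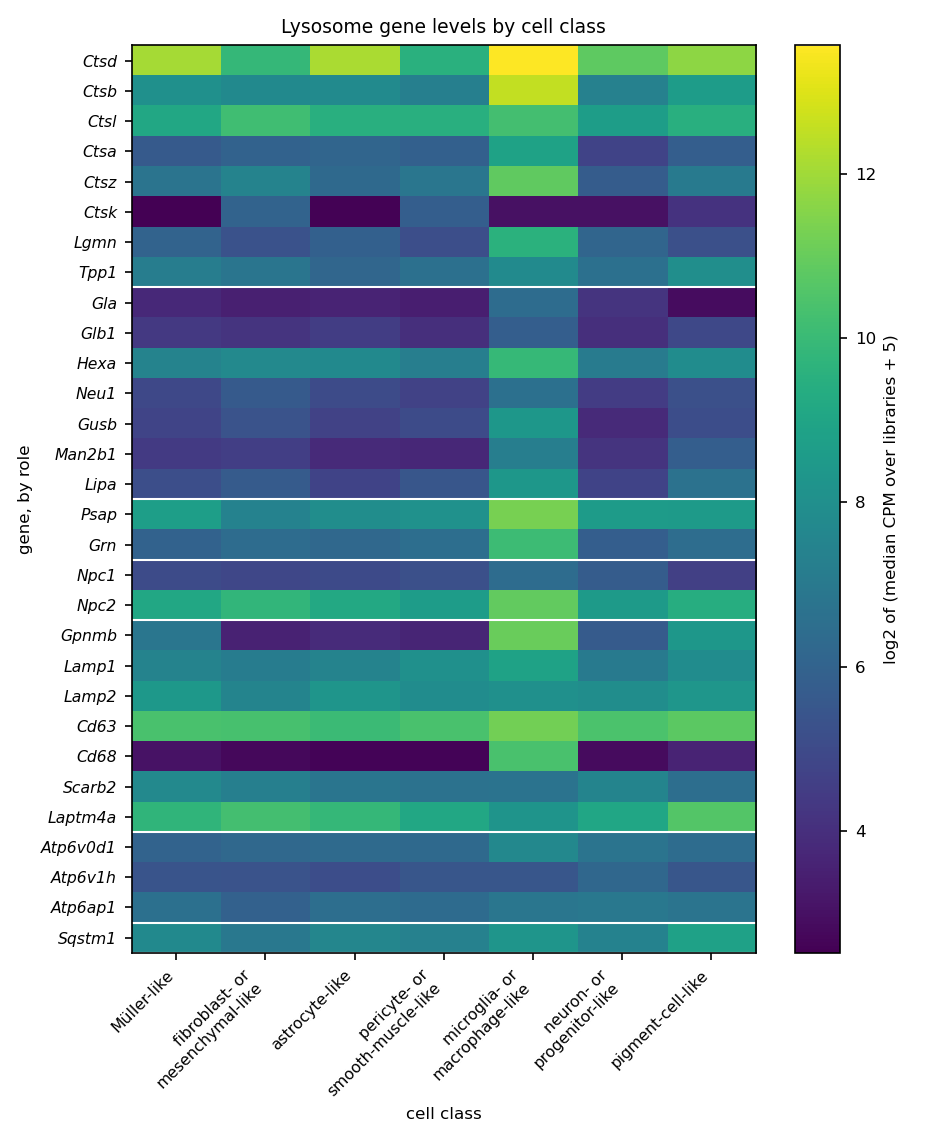
Log2 of the median CPM over libraries, plus 5, of each lysosome gene in 7 cell classes, over libraries with at least 50 cells of the class (1 library for pigment-cell-like, 3 for neuron- or progenitor-like and 6 for the others); rows are grouped by role and are read along the row, because UMI counts are not scaled by length. Most rows are highest in microglia- or macrophage-like cells, and those of Scarb2, Lamp2, Laptm4a, Ctsk, Atp6v1h, Atp6ap1, Tpp1 and Sqstm1 are not.

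In microglia- or macrophage-like cells the libraries that stood apart were others than in Müller-like cells. Gpnmb stood at 2309, 1925, 1119, 2272, 1004 and 2213 CPM there. The miR-25 mimic and double combination libraries, which share the miR-25 mimic, were low, at log2 ratios to control of -1.04 (-1.21 to -0.89) and -1.20 (-1.39 to -1.02), and the other 4 lay close together. Psap stood at 2772, 2609, 1733, 2659, 1765 and 2446 CPM with the same libraries low. Ctsd stood at 11983, 12219, 7328, 13723, 9379 and 12332 CPM and Ctsb at 6210, 6087, 4164, 5815, 4300 and 6286 CPM, again in this order.

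Of the 29 genes measured in these cells, 6 were at least 1.5 times lower than in the control with the miR-25 mimic (12.4% of 6472 genes were) and 9 in the double combination (21.6%). The medians were -0.33 and -0.38, beside 0.051 and -0.069 for all genes, with 26 of 29 below 0 in each. The 6 were Gpnmb, Ctsd, Lamp1, Psap, Gla and Npc1. In the miR-25 mimic library Npc1 rests on 12 UMIs and Gla on 19. The interval of Gla there was -1.56 to 3.7e-05. Gla has miR-25 sites in its 3′ UTR, as has Npc1, while Gpnmb, Ctsd, Lamp1 and Psap have none. Lamp2, which also has a site, stood at -0.081 (-0.45 to 0.27) with the mimic. In the double combination Gla stood at -0.13 (-0.88 to 0.56) and Npc1 at -0.61 (-1.51 to 0.12). At least 1.5 times higher were 1 gene with the miR-25 mimic, Man2b1 at 0.76 (13.0%), and 0 in the double combination (13.2%). In the let-7 antagomiR library 2 were lower, Laptm4a and Sqstm1 (12.8%), and 2 higher, Man2b1 at 0.71 and Atp6v1h at 0.59 (9.01%). In that labelled miR-124, 0 were lower (16.8%) and 0 higher (6.4%), and in that labelled triple combination 1 was lower, Ctsl (8.48%), and 0 higher (7.86%). The last 3 had medians of -0.03, -0.04 and 0.01. The labelled-triple library, whose label names the miR-25 mimic, thus lay with the control.

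The summed microglia markers were alike in these cells, from 21757 to 23825 CPM over the libraries. Other values differed beside the lysosome genes. Median depth was 6362, 6847.5, 4712, 4094, 3970 and 6995 UMIs, so the miR-25 mimic, labelled miR-124 and double combination libraries were shallow. Fibroblast markers summed to 334, 15.5, 239, 34.3, 25.1 and 294 CPM, and Müller markers other than Apoe, which macrophages make themselves, to 1548 to 2159 CPM. The part of depth, cell number and RNA of other cells in the result was not tested.

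**Figure D5:**
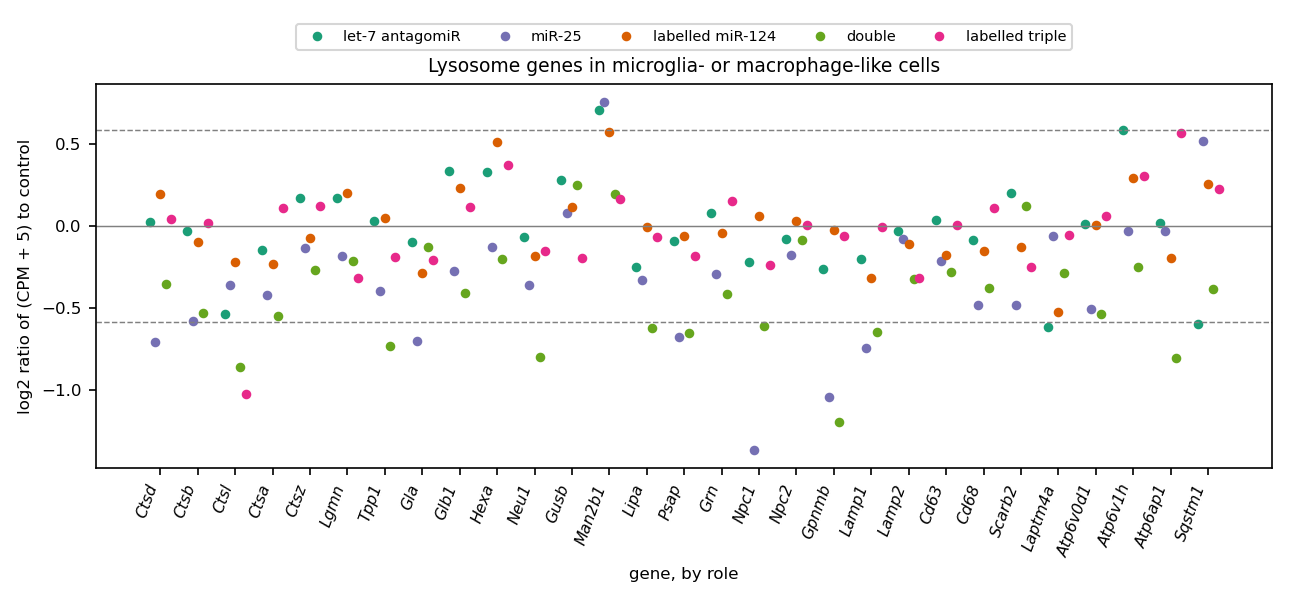
Log2 ratios of CPM + 5 to the control for 29 lysosome genes in microglia- or macrophage-like cells, by role, with 1 point per treated library; dashed lines mark 1.5 times. Gpnmb, Psap, Lamp1 and Npc1 lie below the lower line in the miR-25 mimic and double combination libraries. Ctsl lies below it in the labelled-triple library, at -1.02. All other points of the labelled-miR-124 and labelled-triple libraries lie between the lines.

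Between the labelled-triple library and the double combination the median of the lysosome genes was -0.57 in Müller-like cells and above 0 in the other classes, where more of all genes tested passed 1.5 times upward than downward. In fibroblast-like cells it was 0.24, beside 0.027 for all genes, and 3 of 26 passed 1.5 times upward and 0 downward (3.93% and 1.75% of genes tested there). In astrocyte-like cells it was 0.28, beside 0.12, with 7 of 25 higher and 1 lower (18.2% and 8.26%). In pericyte-like cells it was 0.088, beside -0.037, with 2 of 25 higher and 1 lower (7.26% and 6.01%), and in microglia-like cells 0.49, beside 0.070, with 7 of 29 higher and 0 lower (22.0% and 12.6%). The shares that were higher in pericyte-like and microglia-like cells were near those of all genes. Atp6ap1 was among the higher genes in fibroblast-like, astrocyte-like and microglia-like cells, at log2 ratios of 0.67, 0.84 and 1.37, and stood at 0.41 in Müller-like cells. Ctsd was lower in astrocyte-like cells as in Müller-like cells, at -0.63, and stood at -0.021 in fibroblast-like and -0.060 in pericyte-like cells. The difference between classes was not tested.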

How the data were processed

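The deposited matrices hold the authors' raw UMI counts for each gene in each cell of 10x Genomics V2 libraries, per the labels' protocols. The submitters' processing notes name Cell Ranger 2, Seurat 2 and mm10; the authors' own cell filters are not stated there. The lysosome genes and all lists were chosen with earlier results of these data known.

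A cell needed 500 genes or more and no more than 10% mitochondrial UMIs, and doublets called by Scrublet (scanpy 1.11.5) were removed. Scrublet marked 0.177% of the control and 0.367% of the labelled-triple library, below what a working caller marks, and 1.92 to 4.22% of the other libraries. All cells were clustered together on 2000 variable genes, with 180 lysosome pathway genes left out, 30 principal components, 15 neighbours and Leiden resolution 0.6, without integration. Clusters were named by marker lists, and a cluster of 230 cells with mixed markers stayed unnamed, as did a cycling one of 91 cells. Counts were summed per library and class, scaled to CPM, and kept where a gene reached 20 CPM in at least 1 library with 50 cells or more. Ratios used a pseudocount of 5 CPM. Intervals are exact Poisson or conditional ratio intervals. They were tried only on counts simulated from the same Poisson model, which cannot show how they hold for real libraries. With 1 library per treatment no test was made. Named are all lysosome genes, with values in every library for those at least 1.5 times apart in a comparison, and the 2 highest and 2 lowest of each further list by triple against double. Site genes were compared after removing quadratic trends over genes. The alternatives are named in the closing section.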

Additional observations from a re-analysis of the deposited data

Results flagged for a closer look

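The median log2 ratio of the lysosome genes between the labelled-triple library and the double combination had opposite signs in different cell classes. It was -0.57 over 27 genes in Müller-like cells, 0.24 over 26 genes in fibroblast- or mesenchymal-like cells and 0.49 over 29 genes in microglia- or macrophage-like cells. The medians of all genes tested were 0.071, 0.027 and 0.070, and in each class more of all genes were at least 1.5 times higher than lower. The lower and upper counting bounds of the single genes had medians of -0.75 and -0.43, 0.069 and 0.47, and 0.093 and 0.68. These bounds are not an interval of the median ratio. Each sign rests on 1 library against 1 library, and the difference between the classes was not tested.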

How the results depend on the processing

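No paired analysis was possible because each treatment has 1 library and all carry replicate number 1, and no library could be left out for the same reason. Alternatives for single clusters and without Ctsd and Gpnmb were chosen after seeing the data. Over all kept cells the median log2 ratio of the lysosome genes was -0.13 for the labelled-miR-124 library, -0.12 for triple against control, -0.039 for double against control, opposite to 0.16 in Müller-like cells, and 0.024 for triple against double, so its sign turned. Keeping only cells of 1000 genes or more and no more than 5% mitochondrial UMIs, it was -0.054 with the let-7 antagomiR and -0.076 with the miR-25 mimic. With the Müller-like clusters weighted equally it was -0.043 for triple against control and -0.11 for triple against double. The Lcn2-led cluster alone gave -0.069 and -0.20, the Npvf-led cluster -0.0085 and -0.10, with -0.10 for the labelled-miR-124 library against control, and the Rlbp1-led cluster -0.099 for triple against control. In these values the mix of clusters and the treatment cannot be told apart. For the 29 single values past 1.5 times, 278 of 443 alternatives stayed within the counting interval. Another 157 left it with the sign kept, and 8 turned the sign. Lipa turned for the labelled-miR-124 library against control in the Rlbp1-led cluster (0.11), for double against control over all kept cells (-0.056), and for triple against control with equal weights (0.15), in the Npvf-led cluster (0.11) and in the Rlbp1-led cluster (0.65). In the Rlbp1-led cluster Lipa has 2 UMIs in the control and missed the filter, and the intervals of these single-cluster values and of the value over all kept cells hold 0. For triple against double, Ctsd (0.19) and Hexa (0.087) turned in the Npvf-led cluster and Ctsa over all kept cells (0.19). Over the alternatives, genes at least 1.5 times lower numbered 2 to 9 for the labelled-miR-124 library (8 as reported), 1 to 8 for triple against control (6) and 2 to 15 for triple against double (12). For double against control 0 to 2 were higher (1). The Rlbp1-led cluster gives no value for the double combination, which has 31 cells there. Median-of-ratios scaling and thinning each cell to 1500 UMIs kept the sign of all 6 medians.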

Other observations

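Apoe, a lipid carrier that macrophages secrete, stood at 12103.5, 12209, 9882, 14191, 9508 and 13027 CPM in microglia- or macrophage-like cells, so the miR-25 mimic and double combination libraries were again the lowest. Sqstm1 had another order in the Npvf-led Müller-like cluster than in Müller-like cells as a whole. It stood there at 213, 221, 232, 367, 283 and 326 CPM, highest in the labelled-miR-124 and labelled-triple libraries, and it was at least 1.5 times over the control in both. Pigment-cell-like cells, which make melanosomes, had 0.913 to 1.28% of their UMIs from the 30 lysosome genes, with 22 to 77 cells per library.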
